A study of Homo sapiens with 9 samples.

Results

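The nuclear genes of respiratory complexes II, III and IV, of cytochrome c and of complex V, the ATP synthase, were followed in HaCaT, an immortalised human keratinocyte line. Members were the identifiers of the deposited count table whose symbol is SDHA, SDHB, SDHC, SDHD, CYC1 or CYCS, or begins with UQCR, COX4 to COX8, ATP5F1, ATP5M, ATP5P or ATP5IF1. The rule used symbols only, and took 53 of 20263 identifiers. Of these, 4 belong to complex II, 11 to complex III with cytochrome c, 17 to complex IV and 21 to complex V. Poly(A) RNA was sequenced from 9 libraries in 3 groups of 3. The glabridin libraries came from melanosome-laden HaCaT cells given glabridin, an isoflavan of licorice root. The melanosome libraries came from HaCaT cells laden with melanosomes, the pigment granules that melanocytes hand to keratinocytes, and the control libraries, titled Blank and labelled WT, from HaCaT cells with neither. The sources used here do not give the dose, the exposure time, where the melanosomes came from or whether replicates were separate cultures. All p-values therefore cover only the spread from library to library, possibly a technical one. Melanosomes and glabridin came together in the comparison of glabridin with control libraries, and no group received glabridin alone, so in that comparison their effects cannot be told apart.

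In the inner mitochondrial membrane, complexes II, III and IV pass electrons from succinate and ubiquinol to oxygen. Complexes III and IV pump protons while doing so, cytochrome c carries electrons between them, and complex V uses the returning protons to make ATP. Complex II is built from nuclear genes only, whereas complexes III, IV and V each contain some subunits encoded in mitochondrial DNA, so their assembly draws on both genomes. Several subunits exist as isoforms from separate genes, some of which are used mainly in muscle, lung or testis.

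In the glabridin libraries, 14 of the 45 members that passed the filter on low counts (31.1%) were higher than in the melanosome libraries and 0 were lower, against 23.7% higher and 20.2% lower of all genes tested. In the melanosome libraries, 25 members (55.6%) were higher and 5 (11.1%) lower than in control, against 29.5% and 33% of all genes. In the glabridin libraries, 31 members (68.9%) were higher and 3 (6.67%) lower than in control, against 37.6% and 32.7% of all genes. COX7A2L and ATP5MK, which encode a supercomplex factor and a small ATP synthase subunit, were the only members called higher with glabridin than with melanosomes alone under all 24 alternative settings. ATP5MC1, UQCRC1 and ATP5F1B, the genes of a ring subunit of ATP synthase, a core subunit of complex III and the catalytic subunit of ATP synthase, were 2.87-fold, 2.002-fold and 1.93-fold higher in melanosome than in control libraries. ATP5MC2, a gene for the same mature protein as ATP5MC1, was below control in both melanosome-laden groups.

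Levels are in CPM, a gene's share of the counts of a library after scaling by the trimmed mean of M values (TMM), and compare libraries within a gene. Where genes are compared with each other, the authors' TPM are used, which are shares per transcript length. The lengths used for them were not checked here, and the size of a ratio or share between genes rests on them. A gene was called higher or lower at an adjusted p under 0.05 in edgeR's quasi-likelihood test on the deposited counts, fitted over all 9 libraries with Benjamini-Hochberg adjustment over the 13912 genes that passed the filter. Fold changes are on the log2 scale, with a standard error (SE). The fit shares an estimate of each gene's spread over all groups, so SE and p-values do not follow a spread that differs between groups. The 8 members that did not pass were COX4I2, COX6A2, COX7A1, COX7B2, COX8C, ATP5MGL, the pseudogene ATP5F1EP2 and the readthrough transcript ATP5MF-PTCD1. COX6A2, COX7B2, ATP5MGL and ATP5MF-PTCD1 had 0 counts in all 9 libraries. COX4I2 had 2 counts, in control replicate 2, and ATP5F1EP2 had 2, in glabridin replicate 1. Counts of COX7A1 and COX8C were at most 4 in any library.

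Library totals ran between 42582054 and 46591852 counts with glabridin, 39653425 and 46690787 with melanosomes alone, and 41793696 and 45839573 in control. All 12 keratinocyte markers were detected in every library. Their summed level was 9880 ± 1365 CPM in glabridin, 11540 ± 447 CPM in melanosome and 13817 ± 87.9 CPM in control libraries (SD, n = 3 each). They did not move together. KRT5, which led the sum in control, had means of 2249, 3546 and 5202 CPM in the same order, and SFN 1339, 994 and 930 CPM. In glabridin over melanosome 4 were called higher and 5 lower (all genes 23.7% and 20.2%). The counts were 1 and 9 in melanosome over control (29.5% and 33%), and 1 and 6 in glabridin over control (37.6% and 32.7%). The 14 melanocyte markers summed to 1958 to 3699.6 CPM in glabridin, 3330.4 to 3457 CPM in melanosome and 85.8 to 87.6 CPM in control libraries. Of the 14, 14 were called higher than control in either melanosome-laden group, and TYR, OCA2 and TRPM1 had 0 counts in every control library. Fibroblast markers summed to 12.7 to 14.8 CPM in glabridin, 18.7 to 20.3 CPM in melanosome and 42.2 to 45.5 CPM in control libraries. DCN, which led this sum in control, had means of 3.01, 5.77 and 32.03 CPM in the same order, and COL3A1 0.563, 0.688 and 1.38 CPM. LUM was instead above control in both laden groups, at 2.23, 2.99 and 0.339 CPM. COL1A1 had means of 7.64, 10.01 and 9.77 CPM. Immune markers summed to 105 to 119 CPM in glabridin, 69.1 to 77.4 CPM in melanosome and 57.1 to 61.3 CPM in control libraries, with PTPRC at 0. Nearly all of this was CD68, with means of 109, 69.1 and 53.7 CPM in the same order. CD14, at 3.75, 4.39 and 5.40 CPM, and CD3E, at 0.136, 0.189 and 0.241 CPM, ran the other way. Whether RNA of pigment cells takes part in any difference from control given here was not tested. In bulk RNA, fewer cells of a type and less RNA per cell cannot be told apart.

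Glabridin libraries differed among themselves more than the others did. In that group, replicate 2 was highest for 41 of 45 members (91.1%) and replicate 3 lowest for 37 (82.2%), against 39.8% and 39.2% of all genes tested. The median coefficient of variation of the members was 13.4% in glabridin, 5.37% in melanosome and 3.90% in control libraries. That of all genes was 13.7%, 6.30% and 4.72%. As the fit shared each gene's spread over all groups, SE may be too small in comparisons with glabridin libraries and too large in melanosome over control. Melanocyte markers were highest in the same library, at 3699.6 CPM in glabridin replicate 2, against 2345 and 1958 CPM in replicates 1 and 3, and its part in the members' levels was not tested. In the melanosome group, replicate 2 was highest for 31 members (68.9%), against 27.1% of all genes.

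**Figure D1:**
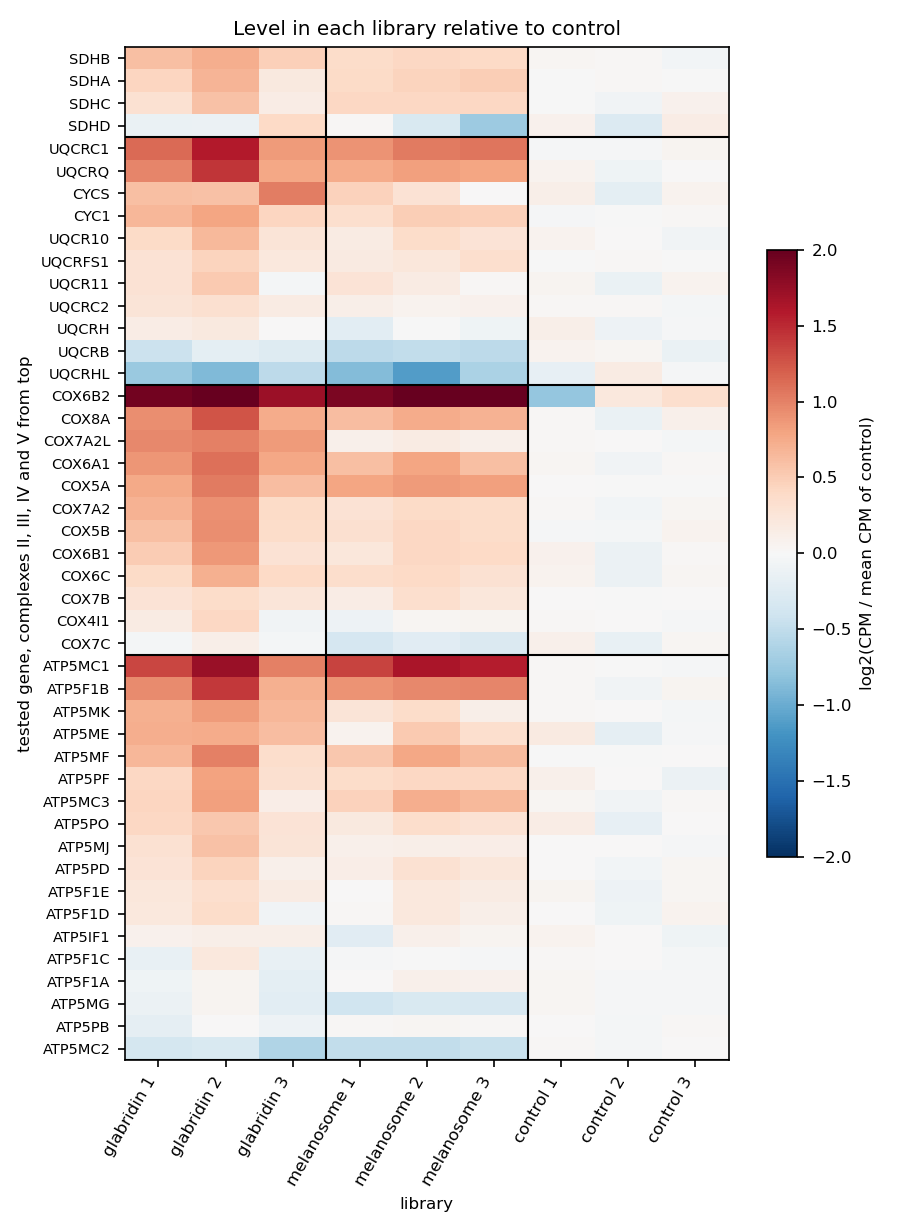
Level of each of the 45 tested members (rows, complexes II, III, IV and V from top) in each library (columns), as log2 of CPM over the mean CPM of the control libraries, with red above and blue below control. Glabridin replicate 2 is the reddest column of its group for most rows, UQCRB, UQCRHL and ATP5MC2 are blue in all 6 melanosome-laden libraries, and COX7A2L is clearly red in the glabridin columns and pale in the melanosome ones.

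The plot of levels by library shows that the members did not move as a block. Each complex had rows above control in all 6 melanosome-laden libraries and at least 1 row that was not. Complexes III and V also had rows below control in all 6, which were UQCRB, UQCRHL and ATP5MC2.

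Start regions of 6 members are shown because these genes carry the differences described below. They are COX7A2L and ATP5MK, SDHB as the complex II gene called higher in all 3 comparisons, UQCRC1, and the subunit c genes ATP5MC1 and ATP5MC2, which moved apart. Each covers 250 bases before and 50 after the start in RefSeq (GRCh38.p14), on the strand of the gene, written 5′ to 3′. Capitals mark matches to short elements known from promoters of mitochondrial or stress-response genes.
COX7A2L, chr2:42361168-42361467, minus strand: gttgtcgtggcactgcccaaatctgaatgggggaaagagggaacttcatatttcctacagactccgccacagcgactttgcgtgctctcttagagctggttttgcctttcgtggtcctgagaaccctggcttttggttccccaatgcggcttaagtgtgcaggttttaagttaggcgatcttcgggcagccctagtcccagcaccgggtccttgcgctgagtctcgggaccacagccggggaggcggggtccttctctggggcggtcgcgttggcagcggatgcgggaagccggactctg
ATP5MK, chr10:103396426-103396725, minus strand: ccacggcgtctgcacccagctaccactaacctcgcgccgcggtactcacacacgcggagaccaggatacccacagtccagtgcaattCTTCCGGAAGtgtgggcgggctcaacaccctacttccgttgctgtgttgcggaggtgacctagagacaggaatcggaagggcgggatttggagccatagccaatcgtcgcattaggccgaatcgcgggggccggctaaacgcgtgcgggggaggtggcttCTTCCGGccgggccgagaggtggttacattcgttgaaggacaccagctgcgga
SDHB, chr1:17053983-17054282, minus strand: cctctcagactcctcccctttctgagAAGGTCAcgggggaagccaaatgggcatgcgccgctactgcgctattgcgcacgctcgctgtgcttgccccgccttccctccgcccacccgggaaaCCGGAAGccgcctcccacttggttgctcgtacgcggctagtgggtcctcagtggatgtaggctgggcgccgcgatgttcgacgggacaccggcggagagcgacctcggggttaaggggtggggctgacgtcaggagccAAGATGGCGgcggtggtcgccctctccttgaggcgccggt
UQCRC1, chr3:48609597-48609896, minus strand: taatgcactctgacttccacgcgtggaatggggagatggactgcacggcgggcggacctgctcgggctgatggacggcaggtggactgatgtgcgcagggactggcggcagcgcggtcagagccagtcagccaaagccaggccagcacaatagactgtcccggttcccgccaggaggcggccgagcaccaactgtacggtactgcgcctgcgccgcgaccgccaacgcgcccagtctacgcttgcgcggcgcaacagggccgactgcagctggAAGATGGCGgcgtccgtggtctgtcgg
ATP5MC1, chr17:48892537-48892836, plus strand: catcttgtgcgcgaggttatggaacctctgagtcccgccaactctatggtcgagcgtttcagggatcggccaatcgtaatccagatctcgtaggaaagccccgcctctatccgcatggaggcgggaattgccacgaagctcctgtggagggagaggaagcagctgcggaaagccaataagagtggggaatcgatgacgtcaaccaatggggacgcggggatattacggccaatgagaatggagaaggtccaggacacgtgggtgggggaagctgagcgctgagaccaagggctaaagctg
ATP5MC2, chr12:53676034-53676333, minus strand: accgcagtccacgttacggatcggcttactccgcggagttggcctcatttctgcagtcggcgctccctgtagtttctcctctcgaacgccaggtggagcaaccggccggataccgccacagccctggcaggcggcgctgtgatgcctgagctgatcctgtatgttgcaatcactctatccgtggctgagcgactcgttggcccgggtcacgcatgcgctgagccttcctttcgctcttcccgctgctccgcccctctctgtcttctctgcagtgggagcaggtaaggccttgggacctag

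Elements searched on both strands were the ETS element CCGGAAG of GABPA, AAGATGGCG of YY1, GCGCA directly followed by TGCGC for NRF1, AAGGTCA of the oestrogen-related receptors and TGATGNAA of ATF4. Of the 45 tested members, 36 had a start region in the table, and 15 of them (41.7%) held the ETS element, against 18.2% of the start regions of all tested genes and 10.7% of all 27305 start regions. AAGGTCA was in 13.9% of the members' start regions, against 2.54% of those of tested genes and 3.97% of all. AAGATGGCG was in 8.33%, against 3.68% and 1.85%, and the NRF1 element in 5.56%, against 2.18% and 1.36%. TGATGNAA was in 0 of 36, against 1.73% and 3.67%. Tested genes were part of all start regions, and these shares were not tested. In ATP5MK the ETS element occurred 3 times, and its first pair of matches overlapped on opposite strands, the only overlap found. SDHB held CCGGAAG, AAGATGGCG and AAGGTCA, and UQCRC1 held AAGATGGCG. These letters were found in none of the windows of COX7A2L, ATP5MC1 and ATP5MC2. Only the first listed start of each gene was used, and any other starts were not searched. For COX7A2L, on the minus strand, the window lies inside the gene's span, which reaches to 42425088. A match is a description of the sequence, and binding was not measured.

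The comparison of glabridin with melanosome libraries sets melanosome-laden cells given glabridin beside laden cells without it, in bulk RNA. With 14 members called higher and 0 lower, 31.1% were called in either direction, against 43.9% of all genes, so the share called was below the background while all calls were in 1 direction. At an unadjusted p under 0.05, edgeR gave 17 members higher and 0 lower, against 27.3% and 24.1% of all genes. DESeq2 called 5 higher and 1 lower, and limma on log2(TPM + 1) called 2 higher and 9 lower. The median log2 fold change was 0.15 over the members and 0.01 over all genes tested. Called members at least 1.5-fold higher numbered 1, which is COX7A2L, or 2.22%, against 8.92% of all genes. Libraries of the groups did not overlap for 14 members (31.1%), against 50.2% of all genes; of these, 13 were higher and 1, ATP5PB, lower with glabridin. By complex, 1 of 4 tested members of complex II was higher, 4 of 11 of complex III, 5 of 12 of complex IV and 4 of 18 of complex V.

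The number of members called depended on single libraries and on scaling. Without glabridin replicate 1 it was 3, and without glabridin replicate 2 it was 8 higher and 6 lower. Leaving out glabridin replicate 3 gave 21. Without melanosome replicates 1, 2 and 3 in turn it was 5, 8 and 4. Library totals alone, with no scaling factors, gave 2 higher and 2 lower. With that scaling the median of all genes moved by -0.18, and 29% of all called genes were higher, against 54% with TMM. The members' median, taken relative to that of all genes, was 0.14 under both, but 0.0585 with an offset for length and 0.0529 without glabridin replicate 2.

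**Figure D2:**
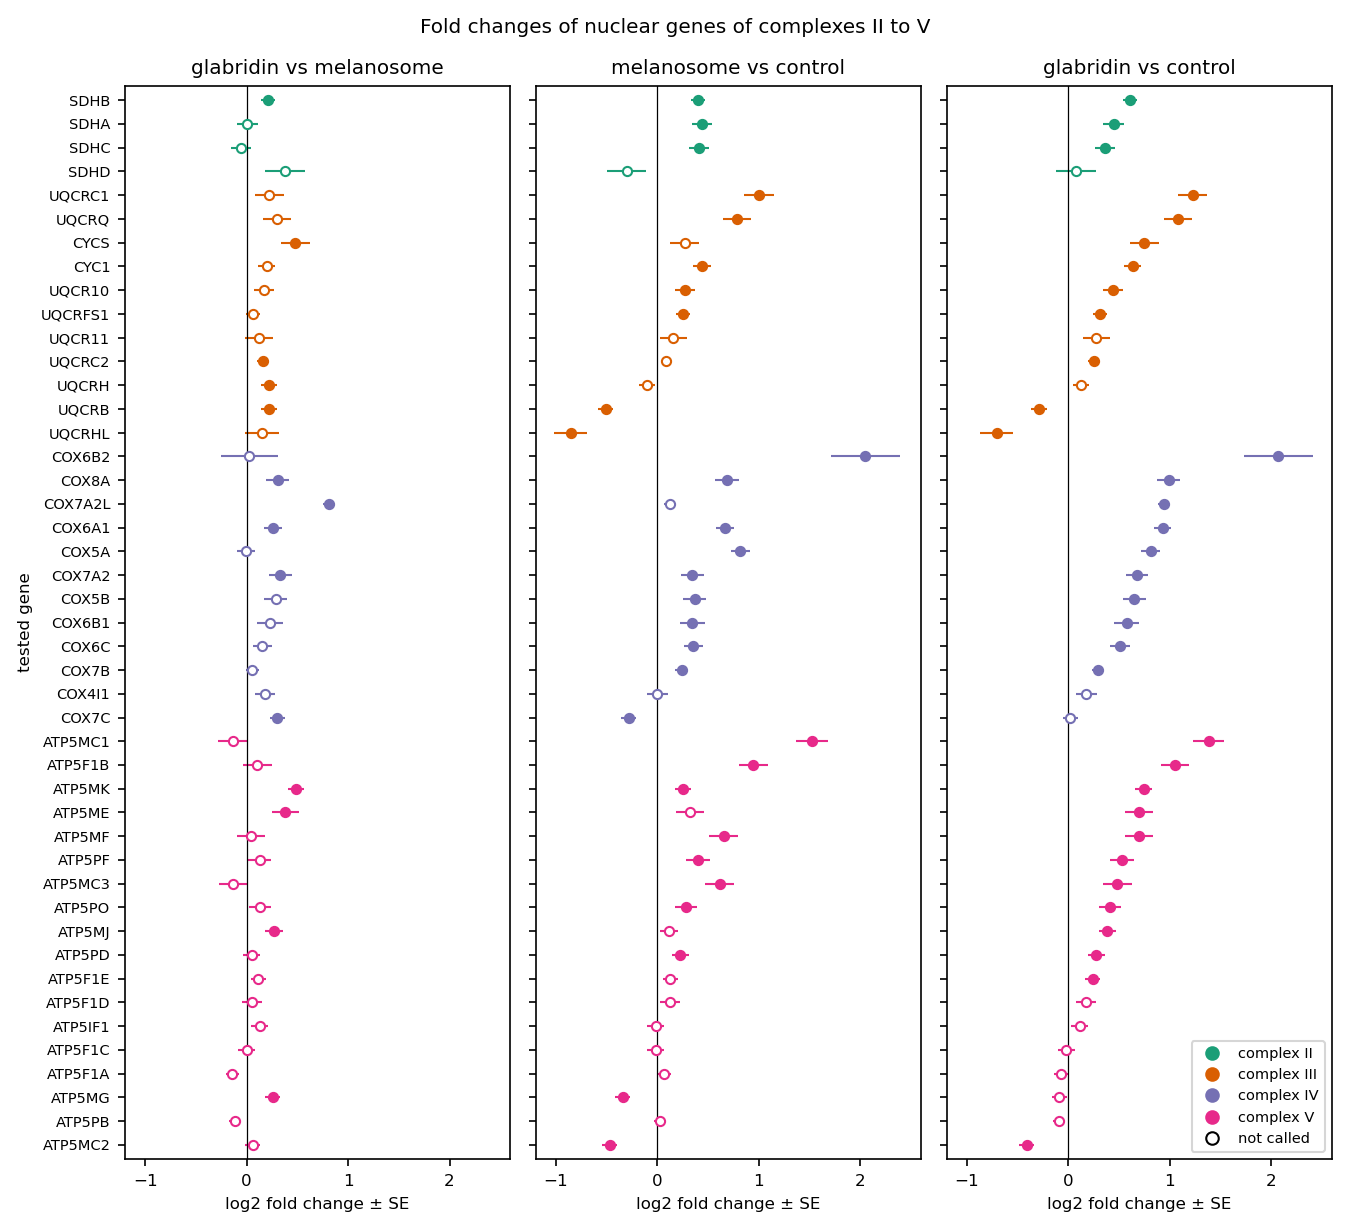
Log2 fold change (x axis) with its standard error (bars) for each of the 45 tested members (y axis) in glabridin over melanosome, melanosome over control and glabridin over control libraries, from edgeR; filled points were called at an adjusted p under 0.05, open points were not, and colours give the complex. COX7A2L stands apart at 0.82 in glabridin over melanosome, COX6B2 at 2.05 and ATP5MC1 at 1.52 in melanosome over control, and UQCRHL is the lowest point at -0.85.

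COX7A2L (ENSG00000115944, chromosome 2, 42333546 to 42425088, GRCh38) encodes a relative of the complex IV subunit COX7A2 that joins complexes III and IV in supercomplexes. It had 216, 224 and 199.9 CPM in the glabridin libraries, 119, 125 and 119 CPM in the melanosome libraries and 113, 112 and 109 CPM in the control libraries. The glabridin libraries lay far above all others without overlap, and the melanosome libraries just above control. The log2 fold change was 0.82 ± 0.058 SE for glabridin over melanosome (1.76-fold, edgeR, adjusted p = 2.25e-06). It was 0.12 ± 0.058 SE for melanosome over control, which was not called (adjusted p = 0.0829), and 0.94 ± 0.058 SE for glabridin over control (adjusted p = 1.74e-07). Over the 24 alternatives, its glabridin over melanosome value ran between 0.62 and 0.86. COX7A2, which encodes the subunit that most tissues carry in complex IV, had 95.6, 111 and 77.0 CPM in glabridin, 72.4, 76.8 and 76.0 CPM in melanosome and 59.96, 56.6 and 60.8 CPM in control libraries. Its groups did not overlap either, with log2 fold changes of 0.33 ± 0.11 SE for glabridin over melanosome (adjusted p = 0.0311) and 0.34 ± 0.11 SE for melanosome over control (adjusted p = 0.0194). The first was called in only 9 of the 24 alternatives, and in none of those that left out glabridin replicate 1 or 2 or any melanosome replicate. The second was called in 18, but not without melanosome replicate 2 or 3 or control replicate 2, nor with an offset for length. Per length and without overlap, COX7A2L made up 42.3% ± 3.11 of the summed TPM of the COX7A genes in glabridin libraries, 34.2% ± 0.565 in melanosome and 37.7% ± 1.13 in control libraries (SD, n = 3 each).

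ATP5MK (ENSG00000173915, chromosome 10, 103389041 to 103396492) encodes a small membrane subunit of complex V linked to the pairing of ATP synthases. It had 59.1, 65.5 and 57.3 CPM in glabridin, 43.4, 46.7 and 39.5 CPM in melanosome and 36.8, 36.5 and 35.3 CPM in control libraries. The groups formed 3 steps that did not overlap, highest with glabridin. Its log2 fold change was 0.49 ± 0.081 SE for glabridin over melanosome (edgeR, adjusted p = 0.000707) and 0.25 ± 0.081 SE for melanosome over control (adjusted p = 0.0187). The second was lost without melanosome replicate 2 or control replicate 3, and with an offset for length, at 0.062. Its exons overlap those of TAF5 on the opposite strand, and how counting treated strand is not given, so reads of the pair may be mixed. The largest difference of complex III was that of CYCS (ENSG00000172115, chromosome 7, 25120091 to 25125361), which encodes cytochrome c, the carrier between complexes III and IV that also triggers apoptosis once released. CYCS had 160.5, 159 and 216 CPM with glabridin, 147, 130.2 and 107 CPM with melanosomes alone and 115, 93.1 and 111 CPM in control. Glabridin replicate 3 stood well above the rest, while melanosome and control libraries overlapped. The log2 fold change for glabridin over melanosome was 0.48 ± 0.14 SE (adjusted p = 0.0189), called in 17 of 24 alternatives but not without melanosome replicate 3. CYCS has 40 pseudogenes by name in the annotation, the most of any member, and its counts may share reads with them.

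**Figure D3:**
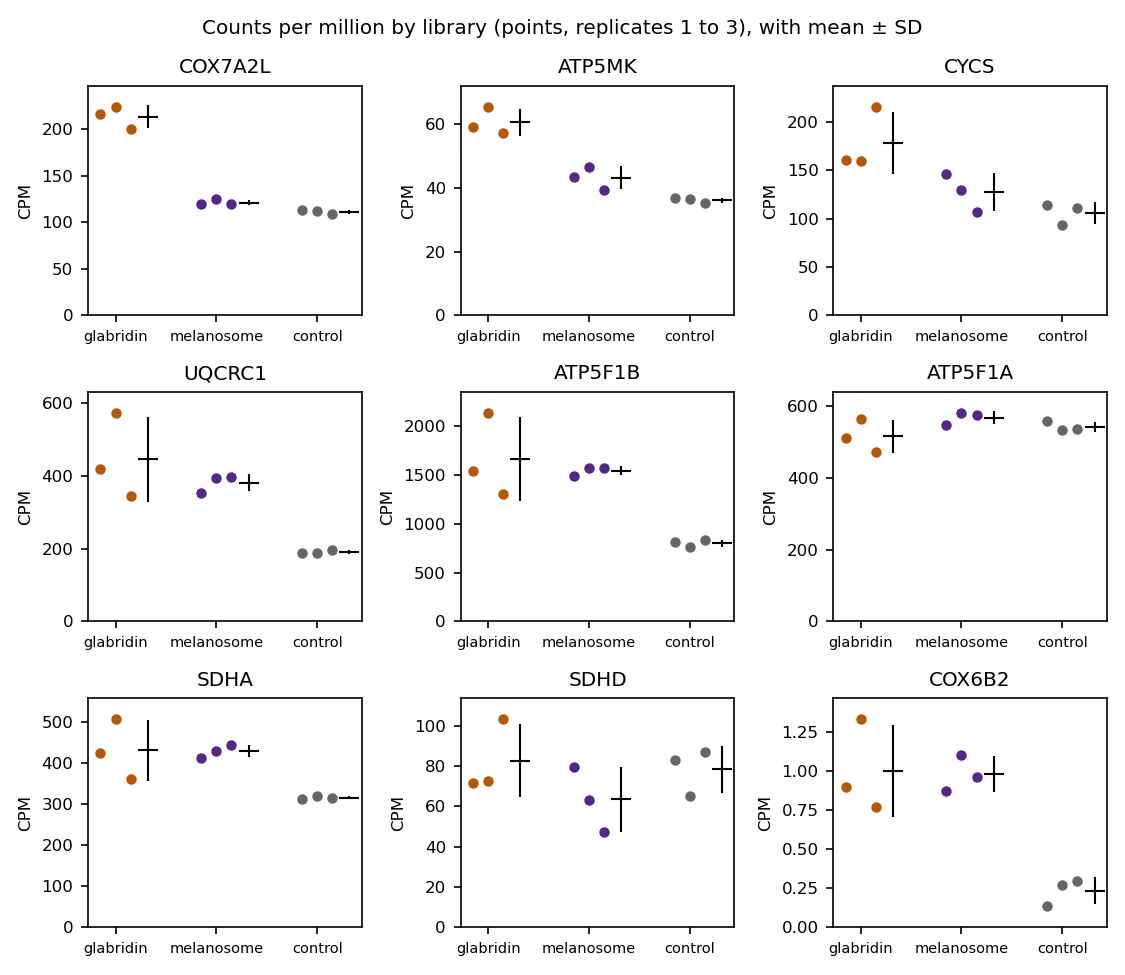
CPM (y axis, from 0) of 9 members in the glabridin, melanosome and control libraries, with a point per library in replicate order and a cross and bar for the mean ± SD (n = 3). COX7A2L and ATP5MK are highest in the 3 glabridin libraries, UQCRC1, ATP5F1B and COX6B2 are high in all 6 melanosome-laden libraries, ATP5F1A is level, and SDHD overlaps between all groups.

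The other members called higher with glabridin differed less. They were SDHB, UQCRB, UQCRC2, UQCRH, COX6A1, COX7A2, COX7C, COX8A, ATP5ME, ATP5MG and ATP5MJ, with log2 fold changes between 0.16 for UQCRC2 and 0.38 for ATP5ME. Each of these 11 calls was lost when glabridin replicate 1 was left out, and none held in all 24 alternatives. UQCRC2 turned sign with library totals alone and with limma on log2(TPM + 1), to as low as -0.025. SDHB, UQCRH, COX6A1, COX8A and ATP5ME were not called with an offset for length, and with an offset for GC content UQCRB, COX7A2, COX7C and ATP5MG were not. COX7C, a small complex IV subunit, and ATP5MG, subunit g of the ATP synthase stalk region in the membrane, were lowest with melanosomes alone. COX7C had 206, 229 and 206 CPM in glabridin, 168, 179 and 174 CPM in melanosome and 226, 191 and 216 CPM in control libraries. The melanosome libraries were below all others, and glabridin and control libraries overlapped. Its log2 fold change was 0.30 ± 0.074 SE for glabridin over melanosome (edgeR, adjusted p = 0.00745) and -0.28 ± 0.074 SE for melanosome over control (adjusted p = 0.00692). With an offset for GC content the value for melanosome over control turned to 0.060. ATP5MG had 120.3, 137 and 113 CPM in glabridin, 99.1, 106 and 105 CPM in melanosome and 135, 129.6 and 129 CPM in control libraries. Again the melanosome libraries lay lowest without overlap, with log2 fold changes of 0.26 ± 0.073 SE for glabridin over melanosome (adjusted p = 0.0155) and -0.34 ± 0.073 SE for melanosome over control (adjusted p = 0.00203). Both comparisons use the same melanosome libraries. Without glabridin replicate 1 neither gene was called higher in glabridin over melanosome, nor COX7C lower in melanosome over control, and without melanosome replicate 1 ATP5MG was not called higher. With the GC offset neither gene was called in either of these comparisons, at 0.29 for COX7C and 0.26 for ATP5MG in glabridin over melanosome. COX7C, ATP5MG and UQCRB were the members called higher with glabridin and lower with melanosomes, and they were singled out after their values were seen.

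The comparison of melanosome with control libraries sets laden cells beside cells with neither treatment. It is made in bulk RNA, in which melanocyte markers also differed, so its differences cannot be assigned to keratinocyte transcripts alone. The 25 members called higher were well above the 29.5% of all genes so called, and the 5 called lower well below the 33%, while 62.5% of all genes were called in either direction. At least 1.5-fold higher were 10 members (22.2%), against 18.6% of all genes, and at least 1.5-fold lower was 1 (2.22%), UQCRHL, against 16.1%. Groups did not overlap for 33 members (73.3%), against 76.1% of all genes. The median log2 fold change was 0.27 over the members and -0.06 over all genes. Complex II had 3 of 4 tested members higher, complex III 5 of 11 with 2 lower, complex IV 9 of 12 with 1 lower and complex V 8 of 18 with 2 lower. Library totals alone moved the median of all genes by 0.17 and the share of called genes that were higher to 66%, against 47.2% with TMM. The members' median relative to all genes was 0.33 under both, but 0.221 with an offset for length.

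In the comparison of glabridin with control libraries, the 31 members called higher were again above, and the 3 called lower below, the shares of all genes, of which 70.3% were called in either direction. At least 1.5-fold higher were 17 members (37.8%), against 25.1% of all genes, and 1 (2.22%) was at least 1.5-fold lower, against 21.1%. Groups did not overlap for 35 members (77.8%), against 73.2% of all genes. The median log2 fold change was 0.44 over the members and 0.03 over all genes. Relative to all genes the members' median was 0.408, but 0.227 with an offset for length. Higher were 3 of 4 tested members of complex II, 7 of 11 of complex III, 10 of 12 of complex IV and 11 of 18 of complex V, and lower were 2 of complex III and 1 of complex V. Without glabridin replicate 2, the number lower was 7. This comparison shares its groups with the other comparisons, so its values stand beside theirs and are no separate evidence. Over the 3 comparisons, 20 members were called higher than control in both melanosome-laden groups with no call between these groups, 5 were called higher in all 3 comparisons, and 8 were called in none. The shares of all genes with these patterns were not computed, so these counts have no background beside them and only describe the members.

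Complex II, succinate dehydrogenase, also works in the citric acid cycle. SDHA (ENSG00000073578, chromosome 5, 218241 to 256700), its flavoprotein, had the highest TPM of the complex and 424, 507 and 360.1 CPM in glabridin, 413, 429 and 443 CPM in melanosome and 313, 319 and 315 CPM in control libraries. All 6 melanosome-laden libraries were above control, and the laden groups overlapped. The log2 fold change was 0.44 ± 0.10 SE for melanosome over control (edgeR, adjusted p = 0.00325) and 0.45 ± 0.10 SE for glabridin over control (adjusted p = 0.00221). The iron-sulfur subunit SDHB (ENSG00000117118, chromosome 1, 17018722 to 17054170) had 155, 169.6 and 142 CPM in glabridin, 132, 136 and 135 CPM in melanosome and 104, 104 and 97.9 CPM in control libraries. The 3 groups did not overlap, in falling order, with log2 fold changes of 0.21 ± 0.068 SE for glabridin over melanosome (adjusted p = 0.0261) and 0.40 ± 0.068 SE for melanosome over control (adjusted p = 0.000545). The first was called in 10 of 24 alternatives, and not without glabridin replicate 1 or any melanosome replicate, and the second in 24.

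SDHC and SDHD encode the membrane anchors of complex II, and of these only SDHC was called. SDHC had 115, 141 and 104 CPM in glabridin, 125, 124 and 124 CPM in melanosome and 92.6, 88.7 and 99.3 CPM in control libraries. It was above control in all 6 laden libraries, with log2 fold changes of 0.41 ± 0.098 SE for melanosome over control (edgeR, adjusted p = 0.00403) and 0.36 ± 0.098 SE for glabridin over control (adjusted p = 0.00698). In glabridin over melanosome SDHC was -0.054 and not called (adjusted p = 0.686). Without glabridin replicate 2 it was called lower there, at -0.18 (edgeR, adjusted p = 0.0278). SDHD had 71.8, 72.6 and 103 CPM in glabridin, 79.7, 63.2 and 47.4 CPM in melanosome and 83.0, 64.9 and 87.1 CPM in control libraries. These libraries overlapped between all groups, and SDHD was called in no comparison (adjusted p = 0.141 in glabridin over melanosome, 0.197 in melanosome over control and 0.743 in glabridin over control). Its spread within groups, 15.1% to 25.4% as a coefficient of variation, was above that of SDHA, SDHB and SDHC in each group. The exons of SDHD overlap those of TIMM8B on the opposite strand.

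Complex III passes electrons to cytochrome c. Its core subunits UQCRC1 and UQCRC2 are built into it in equal numbers. UQCRC1 (ENSG00000010256, chromosome 3, 48599002 to 48610976) had 419, 573 and 344 CPM in glabridin, 353, 393 and 398 CPM in melanosome and 187, 187 and 197 CPM in control libraries. All laden libraries were clearly above control, and glabridin replicate 2 was highest. Its log2 fold change was 1.00 ± 0.15 SE for melanosome over control (2.002-fold, edgeR, adjusted p = 0.000187) and 1.23 ± 0.15 SE for glabridin over control (adjusted p = 2.68e-05). UQCRC2 had 302, 317 and 285 CPM in glabridin, 274, 266 and 269 CPM in melanosome and 256, 258 and 246 CPM in control libraries. Its groups did not overlap, but the steps were small, with log2 fold changes of 0.25 ± 0.054 SE for glabridin over control (adjusted p = 0.00182) and 0.09 ± 0.054 SE for melanosome over control, which was not called (adjusted p = 0.174). Per length, the ratio of UQCRC1 to UQCRC2 TPM was 2.30 ± 0.482 in glabridin, 2.22 ± 0.170 in melanosome and 1.18 ± 0.0666 in control libraries (SD, n = 3 each). Every laden library was above every control library in this ratio.

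Of the complex III members, CYC1 (ENSG00000179091), which encodes the redox subunit cytochrome c1, had the highest TPM. CYC1 had 406, 444 and 344 CPM in glabridin, 324, 359 and 358 CPM in melanosome and 253, 255 and 260.4 CPM in control libraries. All laden libraries exceeded control, with log2 fold changes of 0.44 ± 0.085 SE for melanosome over control (edgeR, adjusted p = 0.00126) and 0.63 ± 0.086 SE for glabridin over control (adjusted p = 6.33e-05). UQCRFS1, the Rieske iron-sulfur protein, had log2 fold changes of 0.25 ± 0.069 SE for melanosome over control (adjusted p = 0.00883) and 0.32 ± 0.069 SE for glabridin over control (adjusted p = 0.00177). Of the small subunits, UQCRQ lay furthest above control. UQCRQ had 106, 145 and 92.1 CPM in glabridin, 90.2, 95.8 and 92.8 CPM in melanosome and 56.8, 50.6 and 54.5 CPM in control libraries, with log2 fold changes of 0.78 ± 0.14 SE for melanosome over control (adjusted p = 0.000592) and 1.08 ± 0.14 SE for glabridin over control (adjusted p = 3.85e-05). UQCR10 was called higher than control in both laden groups, at 0.44 with glabridin and 0.27 with melanosomes alone. With an offset for length neither was called, at 0.098 with glabridin and 0.081 with melanosomes alone, and the call with melanosomes alone was also lost without melanosome replicate 2 or 3 or control replicate 2 or 3. UQCR11 was called in no comparison.

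UQCRB and UQCRHL were the members of complex III below control. UQCRB, which encodes a ubiquinone-binding subunit, had 90.8, 106 and 102 CPM in glabridin, 85.3, 87.0 and 84.9 CPM in melanosome and 128, 126 and 112 CPM in control libraries. Melanosome libraries were lowest and control libraries highest, with no overlap between any groups. Its log2 fold change was -0.51 ± 0.075 SE for melanosome over control (edgeR, adjusted p = 0.000204) and -0.29 ± 0.075 SE for glabridin over control (adjusted p = 0.0054). With an offset for GC content neither was called, and the glabridin over control value turned to 0.067. The glabridin over control value was -0.13 with an offset for length, and not called. UQCRHL (ENSG00000233954, chromosome 1, 15807169 to 15809348) is an intronless copy of UQCRH, the gene of the hinge subunit, so their reads may be mixed. UQCRHL had 2.74, 2.49 and 3.20 CPM in glabridin, 2.52, 2.11 and 2.95 CPM in melanosome and 4.10, 5.13 and 4.50 CPM in control libraries. All laden libraries lay below control, with log2 fold changes of -0.85 ± 0.16 SE for melanosome over control (adjusted p = 0.00111) and -0.70 ± 0.16 SE for glabridin over control (adjusted p = 0.00271). UQCRH itself was not called against control and was 0.22 in glabridin over melanosome (adjusted p = 0.0396).

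Complex IV, cytochrome c oxidase, hands electrons to oxygen. Of its 12 tested nuclear members, COX4I1 (ENSG00000131143, chromosome 16, 85798633 to 85807044), a regulatory subunit and the member with the highest mean TPM of the complex over all 9 libraries, was called in no comparison. Within control libraries it was also the highest, at 528 ± 3.76 TPM, but COX8A and COX6A1 were above it in glabridin libraries, at 704 ± 89.1 and 673 ± 42.3 TPM against 592 ± 68.1 TPM, and in melanosome libraries, at 651 ± 15.2 and 640.4 ± 40.4 TPM against 597 ± 15.4 TPM (SD, n = 3 each). COX4I1 had 550.2, 654 and 466 CPM in glabridin, 461, 505 and 509 CPM in melanosome and 498, 492 and 487 CPM in control libraries. The groups overlapped, with glabridin replicate 2 highest. COX5A, the matrix-side subunit next to COX4, was called higher in both laden groups. COX5A had 186, 227 and 169.5 CPM in glabridin, 191, 199 and 196 CPM in melanosome and 112, 110.2 and 110.2 CPM in control libraries. Every laden library was above every control library, with log2 fold changes of 0.82 ± 0.091 SE for melanosome over control (edgeR, adjusted p = 2.62e-05) and 0.81 ± 0.092 SE for glabridin over control (adjusted p = 1.64e-05). Per length, the ratio of COX5A to COX4I1 TPM was 0.602 ± 0.0215 in glabridin, 0.684 ± 0.0263 in melanosome and 0.387 ± 0.00230 in control libraries (SD, n = 3 each).

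Most other ubiquitous subunits of complex IV were higher in laden than in control libraries. COX8A had 133, 166 and 117 CPM in glabridin, 107, 117 and 113 CPM in melanosome and 70.9, 63.7 and 74.3 CPM in control libraries. Its groups did not overlap, with log2 fold changes of 0.31 ± 0.11 SE for glabridin over melanosome (edgeR, adjusted p = 0.0495) and 0.68 ± 0.11 SE for melanosome over control (adjusted p = 0.000466). The first was called in only 4 of 24 alternatives. COX6A1 had 145, 168 and 134 CPM in glabridin, 119, 134 and 119 CPM in melanosome and 80.6, 74.2 and 79.6 CPM in control libraries. Laden libraries were all above control and overlapped slightly between the laden groups, with log2 fold changes of 0.67 ± 0.088 SE for melanosome over control (adjusted p = 8.64e-05) and 0.26 ± 0.087 SE for glabridin over melanosome (adjusted p = 0.0322, 10 of 24 alternatives). COX5B, COX6B1, COX6C and COX7B were called higher than control in both laden groups, by 0.29 for COX7B to 0.65 for COX5B with glabridin, and by 0.24 for COX7B to 0.37 for COX5B with melanosomes alone. With melanosomes alone, COX5B was not called without melanosome replicate 2 or control replicate 1 or 2, nor COX6B1 without melanosome replicate 2 or 3 or any control replicate, or with an offset for length or GC content. COX7B was called in neither laden group with an offset for length, at 0.097 with glabridin and 0.093 with melanosomes alone. None of these 4 was called between the laden groups. The 17 pseudogenes of COX6C by name may take or give reads.

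The isoforms of complex IV used mainly in muscle, lung or testis were close to absent, apart from COX6B2. COX4I2, COX6A2, COX7A1, COX7B2 and COX8C did not pass the filter. COX6B2, an isoform of COX6B1 known from testis, did pass, with 40, 53 and 35 counts in glabridin, 45, 47 and 48 in melanosome and 6, 12 and 12 in control libraries. In CPM these were 0.898, 1.33 and 0.767 CPM in glabridin, 0.872, 1.10 and 0.964 CPM in melanosome and 0.137, 0.271 and 0.297 CPM in control libraries. All laden libraries lay above control at a level near 1 CPM. The log2 fold change was 2.05 ± 0.34 SE for melanosome over control (edgeR, adjusted p = 0.000454) and 2.07 ± 0.34 SE for glabridin over control (adjusted p = 0.000287). With limma on log2(TPM + 1), which shrinks the differences of low genes, melanosome over control was 0.72. A member as low in all groups as COX6B2 was in control could have failed the filter, so this gene may have been testable through the laden groups alone. Its exons also overlap those of AC020922.1 on the same strand.

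Complex V makes ATP in a catalytic head, turned by a ring of c subunits in the membrane. In the head, the alpha and beta subunits are present in equal numbers, from the genes ATP5F1A and ATP5F1B. ATP5F1B (ENSG00000110955, chromosome 12, 56638175 to 56646068) had the highest TPM of all members and 1543, 2134 and 1305 CPM in glabridin, 1491, 1567 and 1572 CPM in melanosome and 813, 762 and 828 CPM in control libraries. All laden libraries were above control, and glabridin replicates 2 and 3 were the highest and the lowest of the laden ones. Its log2 fold change was 0.95 ± 0.14 SE for melanosome over control (1.93-fold, edgeR, adjusted p = 0.000215) and 1.05 ± 0.14 SE for glabridin over control (adjusted p = 6.31e-05). ATP5F1A had 511, 564 and 474 CPM in glabridin, 548, 582 and 576 CPM in melanosome and 558, 534 and 536 CPM in control libraries. Its groups overlapped in every comparison and it was called in none. The ratio of ATP5F1B to ATP5F1A TPM was 11.6 ± 1.94 in glabridin, 9.85 ± 0.0643 in melanosome and 5.36 ± 0.224 in control libraries (SD, n = 3 each). Every laden library was above every control library in this ratio. The size of the ratio rests on the gene lengths used for the TPM, which were not checked here. The longest annotated transcripts were 5818 bp for ATP5F1A and 1839 bp for ATP5F1B. In CPM, which are not per length, the control means were 542 ± 13.7 CPM for ATP5F1A and 801 ± 34.6 CPM for ATP5F1B. ATP5F1A has 7 pseudogenes by name and overlaps HAUS1 on the opposite strand, and ATP5F1B has 1 pseudogene and no such overlap. The gamma and delta subunit genes ATP5F1C and ATP5F1D were called in no comparison, and the epsilon gene ATP5F1E was called higher only in glabridin over control, at 0.24 ± 0.075 SE (adjusted p = 0.0136), and not without glabridin replicate 1 or control replicate 2.

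The ring of complex V is made of subunit c, which 3 genes encode. ATP5MC1, ATP5MC2 and ATP5MC3 differ in the targeting sequence that is removed on import and give the same mature protein. ATP5MC1 (ENSG00000159199, chromosome 17, 48892765 to 48895871) had 57.9, 76.3 and 46.3 CPM in glabridin, 58.6, 71.7 and 68.0 CPM in melanosome and 23.5, 22.9 and 22.7 CPM in control libraries. Every laden library had at least 46.3 CPM and every control library less than 24 CPM. The log2 fold change was 1.52 ± 0.16 SE for melanosome over control (2.87-fold, edgeR, adjusted p = 1.31e-05) and 1.39 ± 0.16 SE for glabridin over control (adjusted p = 1.55e-05). ATP5MC2 (ENSG00000135390, chromosome 12, 53632726 to 53677408) had 162, 168 and 137 CPM in glabridin, 148, 148 and 152 CPM in melanosome and 209.9, 202 and 208 CPM in control libraries. All laden libraries were below control, with log2 fold changes of -0.47 ± 0.073 SE for melanosome over control (adjusted p = 0.000282) and -0.41 ± 0.073 SE for glabridin over control (adjusted p = 0.000487). ATP5MC3 had 223, 292 and 182 CPM in glabridin, 228, 273 and 261 CPM in melanosome and 170.5, 159 and 169 CPM in control libraries. It was above control in each laden library, at 0.62 ± 0.14 SE for melanosome over control (adjusted p = 0.00338) and 0.48 ± 0.14 SE for glabridin over control (adjusted p = 0.0102).

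**Figure D4:**
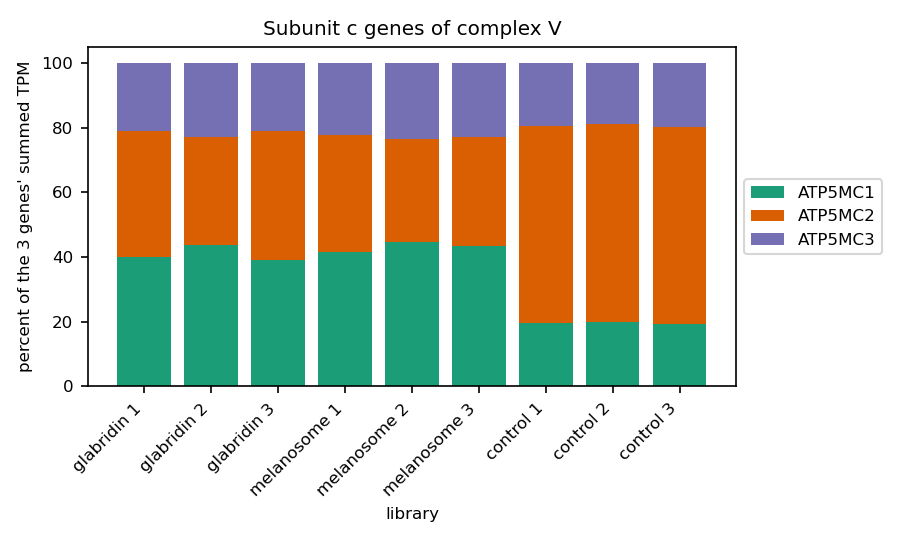
Share of ATP5MC1, ATP5MC2 and ATP5MC3 in their summed TPM (y axis, percent) in each library (x axis). The shares rest on the transcript lengths used for the TPM. ATP5MC1 takes 39.0% to 44.7% in the 6 melanosome-laden libraries and 19.2% to 19.9% in the control libraries, while ATP5MC2 takes 31.9% to 40.04% in the melanosome-laden and 60.8% to 61.2% in the control libraries.

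Per length, the shares of ATP5MC1 and ATP5MC2 in the subunit c transcripts did not overlap between laden and control libraries, as the plot of shares by library shows. ATP5MC1 made up 40.9% ± 2.48 of their summed TPM in glabridin, 43.2% ± 1.59 in melanosome and 19.6% ± 0.354 in control libraries (SD, n = 3 each). The share of ATP5MC2 was 37.4% ± 3.58 in glabridin, 34.0% ± 2.18 in melanosome and 61.1% ± 0.192 in control libraries. ATP5MC3 took 21.7% ± 1.10 in glabridin, 22.8% ± 0.597 in melanosome and 19.4% ± 0.361 in control libraries. These shares rest on the lengths used for the TPM. The longest annotated transcripts were 614 bp for ATP5MC1, 1950 bp for ATP5MC2 and 5484 bp for ATP5MC3. In CPM, which are not per length, the control means were 23.0, 207 and 166 CPM in that order. Summed over the 3 genes, TPM was 484 ± 66.6 in glabridin, 578 ± 23.6 in melanosome and 393 ± 5.91 in control libraries. Between the laden groups none of the 3 genes was called. Without glabridin replicate 2, ATP5MC1 and ATP5MC3 were called lower in glabridin than in melanosome libraries (log2 fold change -0.34, adjusted p = 0.0139, and -0.33, adjusted p = 0.00916). ATP5MC1 has 7 pseudogenes by name and ATP5MC2 has 3, and each may share reads with them.

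Of the stalk subunits of complex V, ATP5PF (factor 6), ATP5PD (subunit d) and ATP5PO, which links head and stalk, were called higher than control in both laden groups, by 0.28 to 0.53 with glabridin and 0.23 to 0.40 with melanosomes alone. Calls with melanosomes alone were lost without control replicate 3 for all 3 genes, and ATP5PD and ATP5PO lost theirs also without melanosome replicate 2 or 3. With glabridin, ATP5PD was not called without glabridin replicate 1 or control replicate 2. ATP5PD and ATP5PO were called in neither laden group with an offset for length, and the value of ATP5PD in glabridin over control turned to -0.093. ATP5PB, the stalk subunit b, was called in no comparison, at 139.8 ± 9.13 CPM in glabridin, 151 ± 1.18 CPM in melanosome and 149 ± 2.85 CPM in control libraries (SD, n = 3 each). Of the small membrane subunits, ATP5MF (subunit f) had 52.6, 66.8 and 42.3 CPM in glabridin, 48.2, 57.1 and 51.7 CPM in melanosome and 33.1, 33.2 and 33.6 CPM in control libraries. Laden libraries were all above control, with a log2 fold change of 0.65 ± 0.14 SE for melanosome over control (edgeR, adjusted p = 0.00215). ATP5ME (subunit e) and ATP5MJ were called higher with glabridin than in either other group, at 0.38 and 0.27 over melanosome libraries. ATP5ME was called in neither comparison with an offset for length. ATP5IF1, the inhibitor that stops ATP synthase from running in reverse, was not called in any comparison. It had 74.3, 75.5 and 76.0 CPM in glabridin, 59.7, 75.0 and 72.0 CPM in melanosome and 73.3, 69.9 and 65.8 CPM in control libraries, with melanosome replicate 1 lowest.

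Summed per length, the members held 1.31% ± 0.136 of all TPM in glabridin, 1.34% ± 0.0225 in melanosome and 0.897% ± 0.0198 in control libraries (SD, n = 3 each). In CPM, which are scaled by TMM, they summed to 8609 ± 1272 in glabridin, 7856 ± 256 in melanosome and 6197 ± 146 in control libraries. The order of the laden groups and the size of the difference from control thus depended on the unit, while both laden groups were above control in either unit. Complex II summed to 814 ± 46.3 TPM in glabridin, 864 ± 20.7 TPM in melanosome and 597 ± 3.31 TPM in control libraries. Complex III with cytochrome c summed to 2987 ± 237 TPM in glabridin, 2939 ± 54.7 TPM in melanosome and 2018 ± 31.6 TPM in control libraries. For complex IV the sums were 4129 ± 397 TPM in glabridin, 3980.3 ± 97.4 TPM in melanosome and 2737 ± 88.4 TPM in control libraries, and for complex V 5181 ± 681 TPM, 5614 ± 87.3 TPM and 3615 ± 81.1 TPM in the same order. For each complex all laden libraries were above all control libraries, and the laden groups overlapped. Such sums are led by a few abundant genes, and ATP5F1B alone gave 2325 ± 472 TPM in glabridin, 2475 ± 3.22 TPM in melanosome and 1134 ± 46.4 TPM in control libraries.

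**Figure D5:**
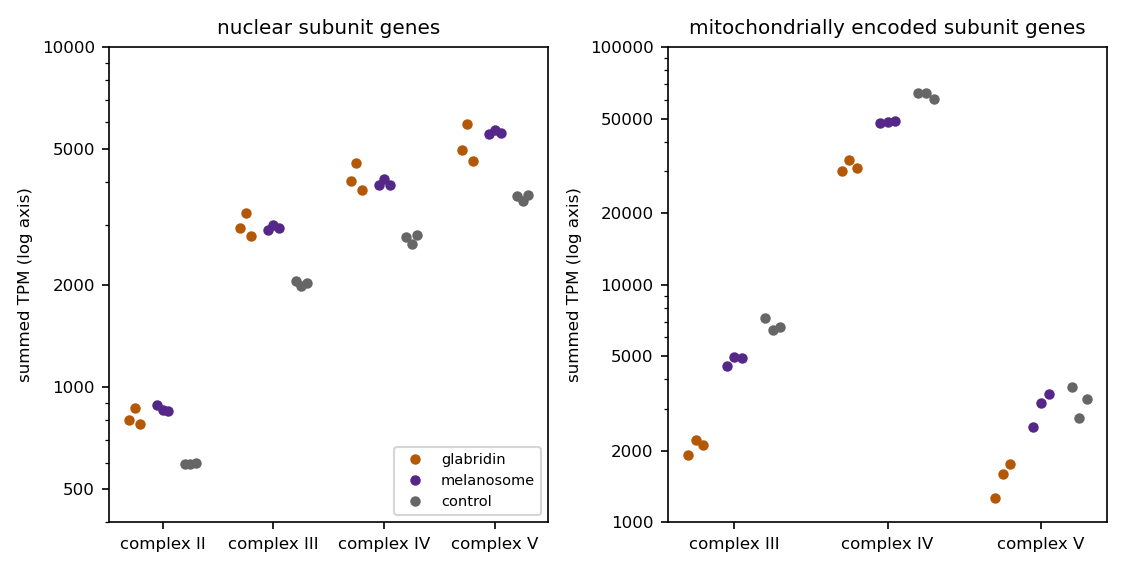
Summed TPM (y axes, log scale) of nuclear (left) and mitochondrially encoded (right) subunit genes by complex (x axis), with a point per library in the glabridin, melanosome and control groups. Nuclear sums are higher in all 6 melanosome-laden libraries than in control, and the mitochondrially encoded sums of complexes III and IV are lowest in glabridin, between the others in melanosome and highest in control libraries.

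The mitochondrially encoded subunits of the same complexes differed in the other direction, as the plot of both sums shows. All 6 were called lower in glabridin than in melanosome libraries (100% of the 6, against 20.2% of all genes), 5 were lower in melanosome than in control libraries (against 33% of all genes), and 6 in glabridin than in control libraries (against 32.7%). The exception was MT-ATP8, not called in melanosome over control. Summed TPM of the complex IV genes MT-CO1, MT-CO2 and MT-CO3 was 31488 ± 1731 in glabridin, 48422 ± 532 in melanosome and 62843 ± 2047 in control libraries (SD, n = 3 each). MT-CYB, the only complex III subunit of the mitochondrial genome, had 843, 1035 and 884 CPM in glabridin, 1709, 1956 and 1939 CPM in melanosome and 3204, 2807 and 2897 CPM in control libraries. Its groups did not overlap, and its log2 fold change of -1.69 ± 0.092 SE for glabridin over control (edgeR, adjusted p = 6.67e-08) was the lowest among the related genes in that comparison. MT-CO1 led the falls in melanosome over control, at -0.86 ± 0.11 SE (adjusted p = 7.15e-05), and MT-ATP8 in glabridin over melanosome, at -1.51 ± 0.40 SE (adjusted p = 0.0104). MT-ATP8 overlaps MT-ATP6 in the genome. Leaving all mitochondrially encoded genes out of the table, those outside these complexes included, lowered the members called higher in glabridin over melanosome to 4, with 2 lower, and changed the other counts of members by less than 1.5 times.

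Assembly and related factors, most of which help to build the complexes without staying in them, were counted from a list by complex. Of all genes, 23.7% were higher and 20.2% lower in glabridin over melanosome. The shares were 29.5% and 33% in melanosome over control, and 37.6% and 32.7% in glabridin over control. Of the 4 tested factors of complex II, 2 were higher and 0 lower in glabridin over melanosome, 0 and 0 in melanosome over control, and 1 and 0 in glabridin over control. Of 9 for complex III, 1 was higher and 2 lower in glabridin over melanosome, 5 and 2 in melanosome over control, and 6 and 3 in glabridin over control. Of 29 tested for complex IV, 8 (27.6%) were higher and 2 (6.9%) lower in glabridin over melanosome. The counts were 8 (27.6%) and 6 (20.7%) in melanosome over control, and 13 (44.8%) and 4 (13.8%) in glabridin over control. Of 7 for complex V, 1 was higher and 1 lower in glabridin over melanosome, 0 and 1 in melanosome over control, and 1 and 2 in glabridin over control. UQCC4, a complex III factor, had 15.0, 17.4 and 15.2 CPM in glabridin and 8.70, 9.76 and 9.05 CPM in melanosome libraries, without overlap (log2 fold change 0.79 ± 0.11 SE, edgeR, adjusted p = 0.000206). UQCC5, another complex III factor, had 6.18, 7.90 and 7.47 CPM in melanosome and 3.32, 3.53 and 3.21 CPM in control libraries (log2 fold change 1.10 ± 0.16 SE, adjusted p = 0.000175). CMC2, a factor of complex IV, had 34.5, 43.2 and 34.2 CPM in glabridin and 15.4, 17.2 and 17.8 CPM in control libraries (log2 fold change 1.15 ± 0.11 SE, adjusted p = 3.68e-06). NDUFA4, a complex IV subunit first described in complex I and not caught by the symbols, had 123, 139 and 112 CPM in glabridin, 80.3, 86.0 and 85.8 CPM in melanosome and 70.1, 66.4 and 71.1 CPM in control libraries. Its groups did not overlap, with log2 fold changes of 0.57 ± 0.080 SE for glabridin over melanosome (adjusted p = 0.000264) and 0.28 ± 0.080 SE for melanosome over control (adjusted p = 0.0111). DMAC2L, a factor tied to ATP synthase, had 6.58, 7.66 and 7.07 CPM in glabridin, 9.63, 8.63 and 7.67 CPM in melanosome and 11.1, 10.7 and 12.7 CPM in control libraries. It lay below control in all laden libraries, with log2 fold changes of -0.41 ± 0.12 SE for melanosome over control (edgeR, adjusted p = 0.0109) and -0.69 ± 0.12 SE for glabridin over control (adjusted p = 0.000359), and was not called between the laden groups.

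The members are short genes, with a median longest transcript of 1439 bp, against 3396 bp over all genes tested, and a median GC content of 47.5%, against 49.3%. Across the 45 members, log2 fold changes of melanosome over control ranked with GC content at a Spearman rho of 0.46 and with length at -0.30, and those of glabridin over control at 0.42 and -0.35. Length here is not the longest transcript but a relative effective length, taken from deposited counts over TPM. Over all tested genes with a value (13855 of 13912 for GC content, 12490 for length) these values were 0.30 and -0.22, and 0.22 and -0.22. For glabridin over melanosome they were -0.073 and -0.25 across the members and -0.020 and -0.11 over all genes. These are descriptions across genes of the same 9 libraries, and genes are not independent replicates. With an offset for length, the members called lower in glabridin than in control numbered 8, against 3, and with an offset for GC content those called lower in melanosome than in control numbered 2, against 5.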

How the data were processed

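Poly(A) RNA of 9 HaCaT libraries was made strand-specific with dUTP and sequenced as read pairs, per the labels' protocols. The authors deposited raw counts per gene, not normalized, and beside them TPM per gene, per the file headers. FPKM values that the authors deposited in the same table were not used. Genome build hg38 is named in the submitters' processing notes, whereas no source used here names the aligner, the counting program, its strand setting or the annotation. Groups and replicate numbers came from the sample titles.

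Counts were tested with edgeR 4.0.16 (R 4.3.3), with TMM scaling, filterByExpr by group, all 9 libraries in 1 quasi-likelihood fit and Benjamini-Hochberg adjustment over 13912 genes, and calls were made at an adjusted p under 0.05. The fit was first tested on simulated counts. DESeq2 1.42.0, limma 3.58.1 on log2(TPM + 1) and 22 further alternatives were computed. The alternative that left out pseudogenes and readthrough transcripts repeated the main fit. ATP5F1EP2 and ATP5MF-PTCD1 had not passed the filter, so it could change no call, and it adds a fixed pass to each count of alternatives. Of 20263 identifiers, 20148 had a symbol, and positions come from GENCODE release 29 (GRCh38). Promoters come from RefSeq. Depths limit the precision of low genes, and all errors given cover these libraries only.

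Genes were named by rule: per complex the highest mean TPM and the largest called rise and fall in each comparison, the COX4I, COX6A, COX6B, COX7A, COX7B, COX8 and ATP5MC families, SDHA to SDHD, CYC1, CYCS, ATP5IF1, and the extremes of the related genes. UQCR10, UQCR11, UQCRB, UQCRC2, UQCRFS1, UQCRH, UQCRQ, COX5A, COX5B, COX6C, NDUFA4, DMAC2L and the remaining ATP5 genes were named after their values were seen. The members and all lists were chosen with earlier results of these data known.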

Additional observations from a re-analysis of the deposited data

How the results depend on the processing

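For the 29 genes named by rule, 2079 single-gene values were computed under the 24 alternatives, including the one without pseudogenes and readthrough transcripts, which could change no value. Of these, 1929 kept their side of the threshold, 89 of them with a change of sign but no call under either setting, while 110 lost the call and 37 gained one. The 3 that turned round were COX7B in glabridin over melanosome with limma on log2(TPM + 1) (-0.127), and COX7C with GC offsets in melanosome over control (0.060) and with length offsets in glabridin over control (-0.22); the cause was not tested. Among called members outside that rule, UQCRC2 turned sign in glabridin over melanosome with library totals and with limma, UQCRB in glabridin over control with GC offsets (0.067) and ATP5PD in glabridin over control with length offsets (-0.093), with no call after the turn. Members called higher in glabridin over melanosome numbered 14, and 4 with RLE factors, 2 with upper-quartile factors, 2 with library totals alone, 5 with DESeq2, 3 with only these groups fitted, 2 with limma, 4 without mitochondrially encoded genes, 9 with length offsets, 3 at an adjusted p under 0.01 and 2 against a fold of 1.2. Lower were 0, and 2 with upper-quartile factors, 2 with library totals, 1 with DESeq2, 9 with limma, 2 without mitochondrially encoded genes and 1 with length offsets. Leaving out each library in turn gave 3 to 21 higher and 0 to 6 lower. In melanosome over control, 13 were higher and 3 lower against a fold of 1.2, and 2 were lower with GC offsets, while leaving out a library gave 18 to 28 higher and 4 to 5 lower. In glabridin over control, 8 were lower with length offsets, and leaving out a library gave 29 to 34 higher and 3 to 7 lower. Upper-quartile factors moved the median of all genes by -0.11 in glabridin over melanosome and limma by -0.14, with 38% and 27.6% of called genes higher, and 41.8% without mitochondrially encoded genes. In melanosome over control limma gave 68.5%. The members' median less that of all genes ran between 0.053, without glabridin replicate 2, and 0.22, without glabridin replicate 3, in glabridin over melanosome. It ran between 0.22 and 0.36 in melanosome over control and between 0.23 and 0.51 in glabridin over control. Both low ends against control came with length offsets. Equal replicate numbers did not pair the libraries, with correlations of same-numbered deviations between -0.234 and 0.050, and 6 of 18 best matches sharing a number. A fit with the replicate block called 9 members higher in glabridin over melanosome, 23 higher and 5 lower in melanosome over control, and 31 higher and 3 lower in glabridin over control. Counts of members under 1 CPM are the least precise at this depth.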
